A study of Mus musculus with 2 samples.

Results

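The proteasome genes of the juvenile mouse cortex were chosen by symbol: every nuclear gene with a protein-coding transcript whose symbol begins with Psma, Psmb, Psmc, Psmd, Psme, Psmf or Psmg. This gave 50 genes of 21888 nuclear genes with a protein-coding transcript, and of 55536 annotated genes in all. Of these, 31 encode subunits of the 26S proteasome, 14 in its 20S core and 17 in its 19S regulator. The other 19 are variant catalytic or alpha subunits, assembly chaperones, activators, an inhibitor and 1 gene that matched by symbol only.

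The material was left cerebral cortex of 2 females of strain B6CASTF1/J (F1 hybrids of C57BL/6 and CAST) at 25 days of age, with 1 total RNA library from each. Replicates 1 and 2 carry separate animal numbers in the labels but a common donor identifier, so the spread between the libraries may be technical if they are not separate animals. Both belong to 1 group, so comparisons are between genes within a library or between the replicates, and no p-value is given, since an exact sign-flip test of 2 libraries cannot go below 0.5. The libraries held 31301126 and 27182336 expected counts, which are read counts with ambiguous reads divided between genes.

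The 20S core is a barrel whose outer alpha rings gate entry and whose inner beta rings carry the proteolytic sites, and the 19S regulator caps it with a base of ATPases that unfold substrates and a lid that removes ubiquitin chains. Cells that meet interferon exchange the constitutive catalytic subunits Psmb5, Psmb6 and Psmb7 for Psmb8, Psmb9 and Psmb10, which makes the immunoproteasome, known for shaping the peptides shown on MHC class I. In neurons the 26S proteasome turns over many short-lived proteins, including those of the synapse.

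Proteasome genes were broadly expressed in the cortex. At a TPM (a level per unit of transcript length, scaled to the same sum in each library) of at least 1 in both libraries, 45 of the 50 were detected, against a background of 58.9% of all 21888 genes. All 31 subunits of the 26S particle were among them. The 5 that were not were the immunoproteasome subunits Psmb8 and Psmb9, the testis alpha subunit Psma8, the thymus subunit Psmb11 and Psme2b, a near copy of Psme2. These levels are from the alignment-based quantification. Another quantification was made directly from FASTQ reads, and by it Psmb8 passed the limit, with 2.31 TPM in replicate 1 and 1.83 TPM in replicate 2. Markers of neurons, astrocytes, myelinating oligodendrocytes, microglia and endothelium were all detected in the tissue by alignment. Of the markers of T cells, B cells, testis germ cells and thymic epithelium, 0 of 11 were. By FASTQ-based TPM, however, the T cell marker Cd3d (1.01 in replicate 1 and 1.40 in replicate 2) and the thymic marker Ly75 (1.06 and 1.20) passed the limit.

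The 31 subunits of the 26S particle chosen by symbol lay in a narrow band of levels. Their median level was 53.5 TPM, higher than 84.3% of the 12901 detected genes, whose own median was 16.1 TPM. Of the 31 subunits, 29 were within 2-fold of the subunits' median by alignment, while 42.3% of detected genes were within 2-fold of theirs. The SD of log2 TPM was 0.51 over the 31 subunits and 1.82 over the detected genes. Together the 31 summed to 1858 TPM in replicate 1 and 1789 TPM in replicate 2. Particle components with symbols outside the rule are not in these counts. Of them, Adrm1 had 40.0 and 45.9 TPM, and the lid subunit Sem1 had 20.5 and 21.2 TPM, below all 31.

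**Figure D1:**
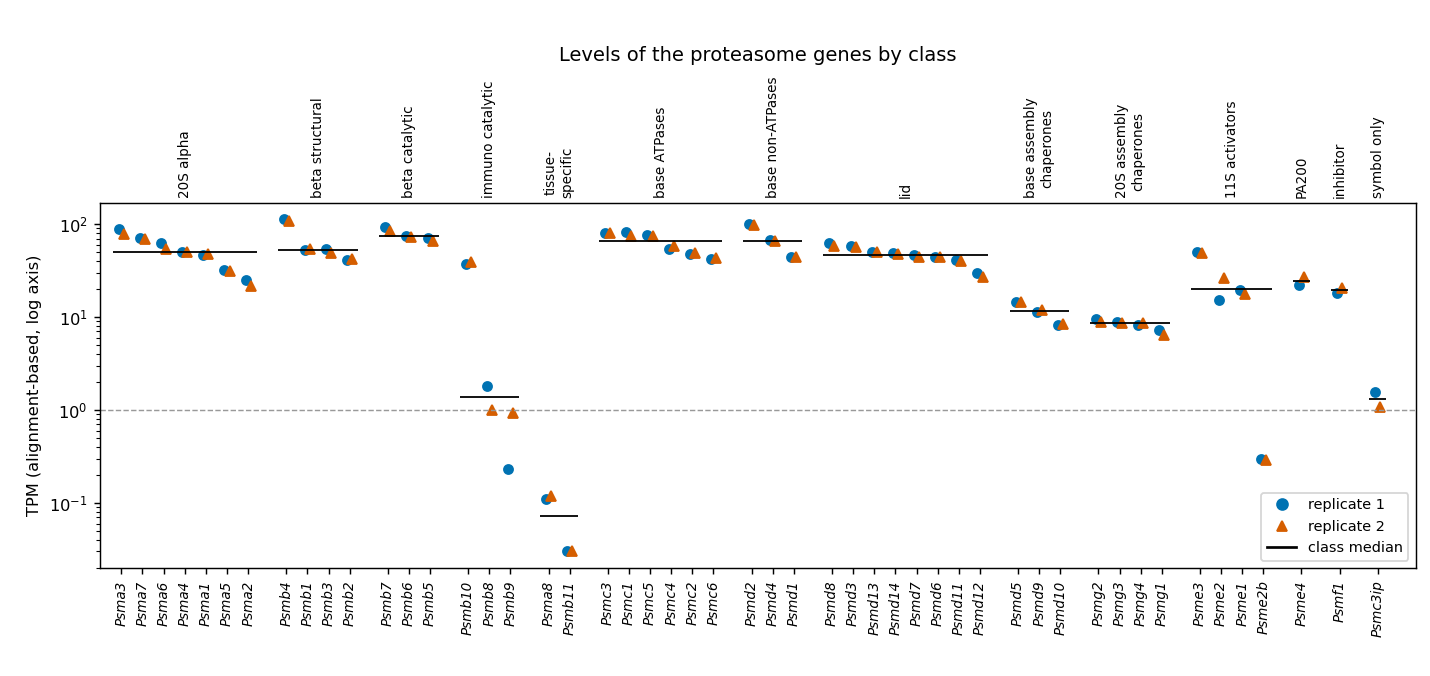
TPM of each of the 50 proteasome genes in replicate 1 (circles) and replicate 2 (triangles) on a log axis, grouped by role, with a line at each class median and a dashed line at the detection limit of 1 TPM. The 31 subunits of the 26S particle lie between 23.5 and 111 TPM on average, with the assembly chaperones below them and Psmb8, Psmb9, Psma8, Psmb11 and Psme2b near or under 1 TPM.

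Among the alpha subunits, which form the outer rings of the core, the median level was 50.3 TPM over 7 genes. Psma3 was the most abundant of them at 89.1 TPM in replicate 1 and 79.2 TPM in replicate 2. Psma2 was the least abundant, at 25.4 and 21.7 TPM, and it was the one alpha subunit more than 2-fold below the median of the class. Psma2 was also the lowest of all 31 subunits and, at 0.439 of their median by alignment, one of the 2 subunits outside the 2-fold band. Its gene model overlaps that of AW209491 on the same strand, which held 462 and 325 counts beside 1210 and 902 for Psma2, and how their shared reads were divided was not tested.

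The structural beta subunits, which sit in the inner rings without a proteolytic site, had a median level of 52.7 TPM over 4 genes. Psmb4 had 115 TPM in replicate 1 and 108 TPM in replicate 2, and Psmb2 had 40.9 and 42.2 TPM. Psmb4 was thus the highest subunit of the whole 26S particle, 2.08 times the median of the 31, and the other one outside the 2-fold band. Transcripts annotated with a retained intron held 46.1% of its TPM in replicate 1 and 49.1% in replicate 2.

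The constitutive catalytic subunits had a median of 74.4 TPM over 3 genes. Psmb7, which cuts after basic residues, had 92.7 TPM in replicate 1 and 83.8 TPM in replicate 2. Psmb6, which cuts after acidic residues, had 75.1 and 73.6 TPM. Psmb5, which cuts after hydrophobic residues, had 71.6 and 65.6 TPM. Of the 50-base stretches in the transcripts of Psmb5, 54.1% also occur in other annotated transcripts, 46.8% in those of the processed pseudogene Gm3375. Psmb5 had 1179 and 910 counts in the alignment-based tables and 686 and 568 in the FASTQ-based tables, the only one of 41 members whose count differed by more than 1.5-fold between quantifications in both libraries, against a background of 1.42%. Gm3375 had 115 and 118 alignment-based counts.

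In the regulator, the 6 base ATPases had a median level of 66.2 TPM. By alignment Psmc3 was highest, with 80.1 TPM in each replicate, and Psmc6 lowest, with 42.3 TPM in replicate 1 and 43.7 TPM in replicate 2. By FASTQ-based TPM Psmc4 was lowest, at 80.3 and 80.6, and Psmc6 had 112 and 100. The ATPases form 1 ring with a single copy of each, and by alignment the highest was 1.86 times the lowest. The non-ATPase subunits of the base had a median of 66.5 TPM over 3 genes. Psmd2, a scaffold that docks ubiquitin shuttle proteins, had 100.5 TPM in replicate 1 and 97.0 TPM in replicate 2, the second highest level of the 31 by alignment. Psmd4, a ubiquitin receptor, had 67.0 and 66.0 TPM, and Psmd1, the other scaffold, had 44.9 and 44.7 TPM.

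The 8 lid subunits within the rule, which leaves out Sem1, had a median level of 46.7 TPM, and all 8 were within 2-fold of it. Psmd8 was highest at 63.3 TPM in replicate 1 and 58.2 TPM in replicate 2, and Psmd12 lowest at 30.2 and 27.3 TPM. Psmd14, the deubiquitinase of the lid, had 48.5 and 47.7 TPM, near the middle of its class.

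The order of the 31 subunits was close to the same in both libraries, with a Spearman rho of 0.990 over 31 genes. Between the alignment-based and the FASTQ-based quantification of the same reads it was 0.822. The lowest 3 were Psma5, Psmd12 and Psma2 in both, with Psma2 last in each. Psmb4 ranked first by alignment and second by FASTQ, where Psma3 came first. Of the 30 pairs of neighbours in the order by alignment, 15 had values that overlapped between the replicates, among them Psmb7, Psma3, Psmc3, Psmc1 and Psmc5 in ranks 3 to 7. The values of the lowest 4 subunits, Psmd11, Psma5, Psmd12 and Psma2, did not overlap.

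Assembly chaperones, which build the particle and leave it, were at lower levels than the subunits. The median over the 7 was 8.80 TPM, against 53.5 TPM over the 31 subunits, and the highest chaperone lay below the lowest subunit. By FASTQ-based TPM that order was reversed for Psmd5, at 31.9 in replicate 1 and 32.0 in replicate 2, and Psma2, at 27.6 and 28.4. Of the base chaperones, Psmd5 had 14.5 TPM in replicate 1 and 14.7 TPM in replicate 2, Psmd9 had 11.4 and 12.01 TPM, and Psmd10 had 8.13 and 8.47 TPM. The core chaperones, which pair to guide the alpha ring, ran between Psmg2 at 9.65 and 8.80 TPM and Psmg1 at 7.33 and 6.39 TPM. Pomp, the core maturation factor whose symbol falls outside the rule, had 70.1 and 63.9 TPM, within the range of the subunits.

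Alternative caps of the core ranged in level. Psme3, the nuclear activator that forms a ring of its own kind, had 50.8 TPM in replicate 1 and 49.5 TPM in replicate 2, close to the median of the 26S subunits. Psme1, one of the pair of interferon-inducible activators, had 19.8 and 17.9 TPM, which was 38.9% and 36.1% of Psme3. Psme4, an activator linked to histone turnover, had 22.3 and 27.0 TPM, and the regulator Psmf1, first described as an inhibitor, had 18.4 and 20.5 TPM.

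Psme2, the partner of Psme1 in a mixed ring, had 15.3 TPM in replicate 1 and 26.6 TPM in replicate 2 while its expected counts were 203 and 205. It was 77.6% of Psme1 in replicate 1 and 149% in replicate 2, but by FASTQ-based TPM it was 73.1% and 77.8% of Psme1, below it in both libraries. The 185-base retained-intron transcript Psme2-203 took 12.3% of the TPM of the gene in replicate 1 and 38.9% in replicate 2. FASTQ-based TPM were 24.3 and 28.2 for Psme2 and 33.3 and 36.3 for Psme1. Psme2b had 4.55 and 3.74 expected counts with posterior SDs of 2.64 and 2.04 counts, and 69.3% of its 50-base stretches occur in other transcripts, 68.7% in those of Psme2.

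Psmc3ip matched the rule by symbol only. It encodes a meiotic recombination protein named for binding Psmc3, and it had 1.55 TPM in replicate 1 and 1.07 TPM in replicate 2, from 31 and 18 counts. Its gene model overlaps that of Mlx by 385 bases on the opposite strand, and Mlx held 471 and 384 counts. How reads in the shared bases were divided was not tested.

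The immunoproteasome subunits did not share a level. Psmb8 had 1.80 TPM in replicate 1 and 0.99 TPM in replicate 2, from 35 and 18 counts. Psmb9 had 0.23 and 0.92 TPM, from 6 and 11 counts. Psmb10 had 37.1 and 39.5 TPM, from 470 and 454 counts. Psmb10 stood at the level of a low 26S subunit and supplied 94.8% and 95.4% of the immunoproteasome TPM. Psmb9 was under the detection limit in both libraries. Psmb8 was under it in replicate 2 only, and passed it in both by FASTQ-based TPM, with 2.31 and 1.83.

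Set against its constitutive counterpart in the same library, Psmb8 was 2.51% of Psmb5 in replicate 1, with a 95% counting interval of 1.74% to 3.51%, and 1.51% in replicate 2, with an interval of 0.895% to 2.41%. Psmb9 was 0.306% of Psmb6 in replicate 1 (0.112% to 0.669%) and 1.249% in replicate 2 (0.618% to 2.23%). Psmb10 was 40.0% of Psmb7 in replicate 1 (36.1% to 44.2%) and 47.1% in replicate 2 (42.3% to 52.3%). In each library the intervals of Psmb8 and Psmb9 lay far under that of Psmb10, and all 3 constitutive genes were above their counterparts. The 3 immunoproteasome genes summed to 16.3% of the 3 constitutive genes in replicate 1 and 18.6% in replicate 2, a log2 ratio of -2.52 ± 0.13 (SD, n = 2). The tissue is a mixture, so fewer cells that express a gene and less RNA per cell cannot be told apart.

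Much of the Psmb10 signal was assigned to transcripts not annotated as coding. The 1311-base coding transcript Psmb10-201 held 23.1% of its TPM in replicate 1 and 24.3% in replicate 2. The 426-base processed transcript Psmb10-203 held 40.5% and 33.2%, and received 0 counts in the FASTQ-based quantification. The 554-base retained-intron transcript Psmb10-205 held 27.2% and 27.1%. Counting only protein-coding transcripts, Psmb8 was 2.02% of Psmb5 in replicate 1 and 0.290% in replicate 2, and Psmb9 was 0.360% and 1.30% of Psmb6. These rest on few counts. Coding Psmb8 had 2.4 expected counts in replicate 2, under the floor of 3 counts, and coding Psmb9 had 6 in replicate 1. By FASTQ-based values the coding ratios were 2.15% and 0.668% for Psmb8 and 0.510% and 0.578% for Psmb9. Over alignment-based coding transcripts Psmb10 had 8.54 and 9.57 TPM, 9.27% and 11.5% of Psmb7. The 3 immunoproteasome genes then summed to 4.49% and 4.98% of the constitutive ones, a log2 ratio of -4.40 ± 0.10 (SD, n = 2). By FASTQ-based values the coding ratio of the sums was 6.66% and 7.30%. Psmb10 stayed the highest of the 3 by either count of transcripts.

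**Figure D2:**
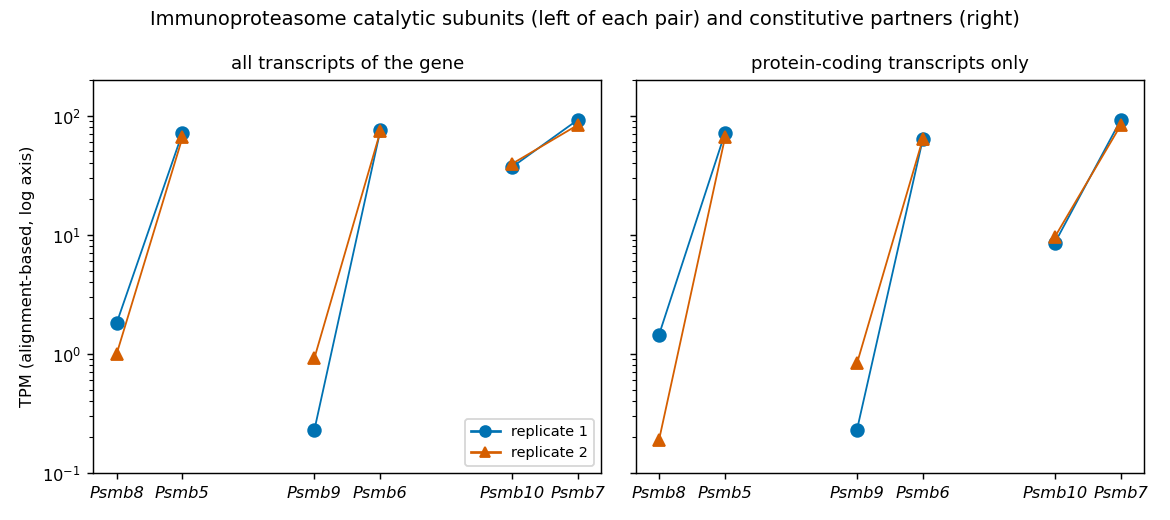
TPM on a log axis of each immunoproteasome catalytic subunit (left of each pair) and its constitutive partner (right), joined by a line for each replicate, over all transcripts of the gene (left panel) and over protein-coding transcripts only (right panel). Psmb10 lies at 37.1 and 39.5 TPM in the left panel and at 8.54 and 9.57 TPM in the right panel, and Psmb8 and Psmb9 lie under 2 TPM in both.

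The bases before the RefSeq starts of these catalytic genes are shown because the genes separate into high and low levels within the same catalytic family. Each is the 100 bases before a RefSeq transcript start on GRCm38.p6, which is mm10, read 5′ to 3′ along the strand of the gene. They are chr17:34198095-34198194 on the plus strand for Psmb8, chr17:34187331-34187430 on the minus strand for Psmb9, chr8:105938393-105938492 on the minus strand for Psmb10, chr14:54617996-54618095 on the minus strand for Psmb5 and chr11:70525257-70525356 on the plus strand for Psmb6. Against the GENCODE spans, the stretches of Psmb8 and Psmb9 lie inside the gene, downstream of its outermost annotated start, those of Psmb10 and Psmb5 lie partly inside, and that of Psmb6 lies outside. Capitals mark matches, on either strand, to the motifs named after them.
Psmb8: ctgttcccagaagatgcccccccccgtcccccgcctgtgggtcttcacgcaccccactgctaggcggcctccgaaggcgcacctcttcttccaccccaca
Psmb9: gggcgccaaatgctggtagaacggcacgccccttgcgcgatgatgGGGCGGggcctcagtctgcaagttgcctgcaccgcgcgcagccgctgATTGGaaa
Psmb10: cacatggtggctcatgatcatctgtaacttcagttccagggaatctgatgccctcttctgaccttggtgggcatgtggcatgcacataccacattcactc
Psmb5: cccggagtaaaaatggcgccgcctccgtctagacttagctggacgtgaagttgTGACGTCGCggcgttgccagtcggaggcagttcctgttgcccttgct
Psmb6: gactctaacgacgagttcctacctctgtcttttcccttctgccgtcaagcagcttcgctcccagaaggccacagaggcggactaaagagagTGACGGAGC

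The capitals in Psmb5 and Psmb6 are matches to TGACNNNGC, the core of the antioxidant response element bound by the Nfe2 family of factors, which drive proteasome genes when proteasome activity is low. Those in Psmb9 are a GC box (GGGCGG) and a CCAAT box read on the other strand. The stretches of Psmb8 and Psmb10 held no match to the 5 motifs searched. Over full 300-base windows, 250 before and 50 after a start, 42 of the 50 genes had 1 or more windows, 45 in all; Psma8, Psmb1, Psmb2, Psmb7, Psmc3, Psmd3, Psmd7 and Psmg2 had none.

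The antioxidant core TGACNNNGC occurred in 6 of 45 windows (13.3%), those of Psmb5, Psmb6, Psmc6, Psmd12, Psmd9 and Psme4, and in 12.4% of all 32851 windows. GGGCGG occurred in 24 windows (53.3%) and in 35.7% of all windows, and CCAAT in 15 (33.3%) and in 37.4%. GAAANNGAAA, the core of the interferon-stimulated response element, occurred in 5 windows (11.1%) and in 3.44% of all windows. Those 5 belong to Psmb3, Psmd4, Psmd9, Psmg4 and Psme1, of which Psme1 is the one known as interferon-inducible. GGGANNNNCC, letters that many kappaB sites share, occurred in 11 windows (24.4%) and in 20.7% of all windows. Both strands were read, and matches to different motifs overlapped once in the member windows. A match is a description of the letters, not a site.

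Psmb8 and Psmb9 lie in the MHC on chromosome 17, where Psmb9 (34181987 to 34187764, minus strand) overlaps the start of the peptide transporter gene Tap1 by 212 bases on the opposite strand, and Psmb8 (34197721 to 34201454, plus strand) follows 9956 bases beyond Psmb9. The next gene, Tap2, lies 2072 bases past Psmb8. Tap1 had 0.77 TPM in replicate 1 and 1.07 TPM in replicate 2, and Tap2 had 2.36 and 2.86 TPM, so all 4 genes of this cluster were below 3 TPM in both libraries. Psmb10 lies apart, on chromosome 8 (105935735 to 105938444, minus strand). Whether the counting used strand is not given in the sources used here, so reads in the shared 212 bases could belong to either gene.

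Other genes of antigen processing and interferon control gave 8 of 9 detected by alignment. B2m, the light chain of MHC class I, had 45.2 TPM in replicate 1 and 48.7 TPM in replicate 2, Tapbp, a peptide-loading factor, 14.3 and 18.7 TPM, and the MHC class I heavy chain H2-D1 8.08 and 9.99 TPM. Microglial markers, from the resident immune cells of the brain, were detected for 5 of 5 genes and summed to 125 and 130 TPM. T cell markers summed to 1 alignment-based count in replicate 1 and 2 in replicate 2, and B cell markers to 9 and 13. By FASTQ-based TPM the T cell marker Cd3d had 1.01 and 1.40. The part of any cell type in the immunoproteasome values was not tested.

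The subunits restricted to other tissues were near the counting floor. Psma8, the testis counterpart of Psma7, had 0.11 TPM in replicate 1 and 0.12 TPM in replicate 2, from 3 and 2 counts, and was 0.154% and 0.171% of Psma7, which had 71.5 and 70.1 TPM. Psmb11, the catalytic subunit of the thymic cortex, had 0.03 TPM in each library, also from 3 and 2 counts, and lies 3410 bases from Psmb5 on chromosome 14. The FASTQ-based tables gave it 23 and 13 counts, still under 1 TPM. Both genes thus rest on 3 or fewer alignment-based counts in each library.

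Across the 45 detected members, transcripts annotated as protein-coding held a median of 90.7% of alignment-based TPM, and across the 31 subunits 92.1%, beside 88.0% across detected genes. By alignment, coding transcripts held under 50% of TPM in both libraries for 2 of 45 members, Psmb10 and Psmc3ip, against a background of 8.74%. Just outside that limit were Psmc6 with 52.3% in replicate 1 and 49.2% in replicate 2, Psmd13 with 49.9% and 53.1%, and Psmb4 with 53.9% and 50.9%. Transcripts subject to nonsense-mediated decay held 30.8% and 23.1% of Psmd13. The FASTQ-based tables gave other members. Under 50% in both libraries were Psmb10 (33.8% and 34.8%), Psmc4 (45.4% and 34.6%), Psmc6 (22.1% and 23.6%), Psmd13 (44.9% and 46.6%) and Psma3. Psmc3ip had 51.6% and 34.3%, and no FASTQ-based background was computed.

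**Figure D3:**
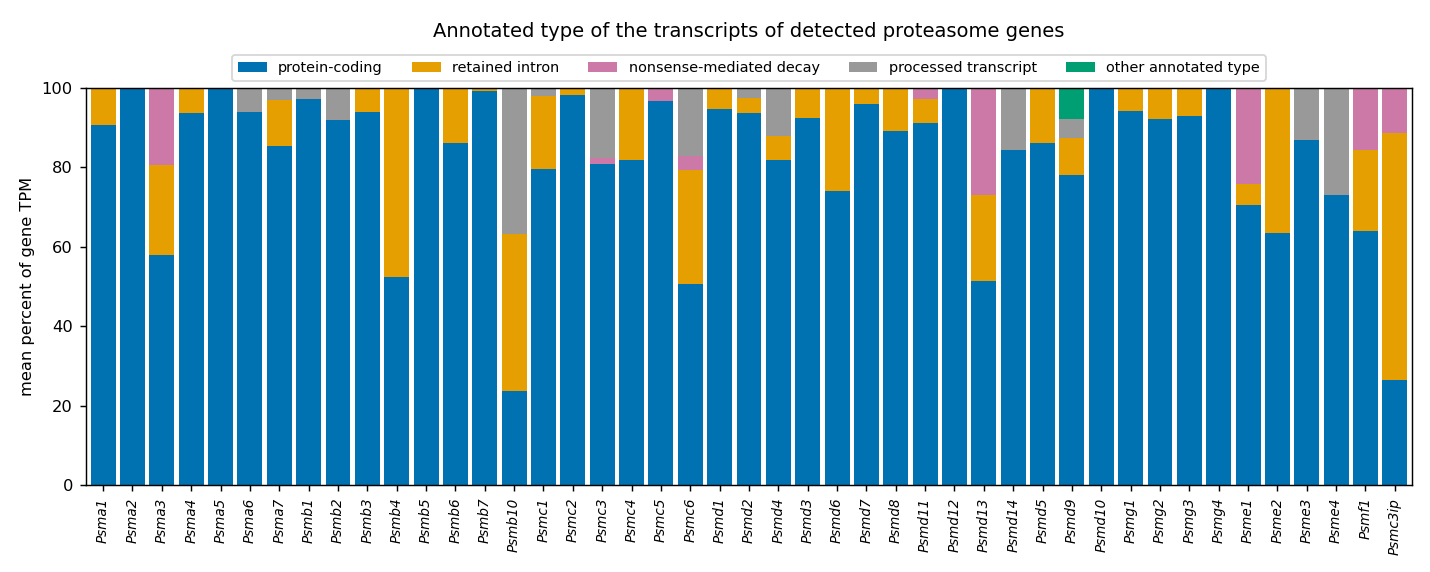
Percent of the alignment-based TPM of each of the 45 detected proteasome genes, averaged over the replicates, in transcripts of each annotated type. Bars start at 0 and sum to 100. Psmb10 and Psmc3ip have the smallest protein-coding shares, and Psmb4, Psmc6 and Psmd13 have about equal coding and other shares.

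Transcript assignments depended on the quantification for some members. The leading transcript differed between the quantifications for 12 of 45 members, beside a background of 24.8%. These were Psma3, Psmb1, Psmb10, Psmc4, Psmc6, Psmd13, Psmd2, Psmd5, Psmd8, Psmd9, Psme2 and Psmg2. At the gene level Psmb1 had 53.2 and 53.9 TPM and Psmc4, a base ATPase, had 54.3 and 57.9 TPM, both near the median of the 31 subunits. For Psmd8, alignment put 83.5% of TPM in replicate 1 and 88.2% in replicate 2 on the coding transcript of 1391 bases, and the FASTQ-based quantification put 65.9% and 75.8% on the coding transcript of 1540 bases. For Psmb1, alignment put 75.0% and 84.3% on the coding transcript of 1758 bases, and the FASTQ-based quantification put 93.4% and 89.8% on that of 1435 bases. The protein-coding share of Psma3 was 59.5% and 56.4% by alignment and 7.52% and 10.7% by FASTQ. The FASTQ-based leaders of Psmc4 and Psmc6 were retained-intron transcripts, with 40.9% and 40.7% of Psmc4 and 28.6% and 24.3% of Psmc6. For Psmd2 the FASTQ-based quantification put 91.1% on a decay-annotated transcript of 3001 bases in replicate 1 but 75.8% on the coding transcript of 2961 bases in replicate 2, where alignment put 86.4% and 85.4% on the coding one.

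**Figure D4:**
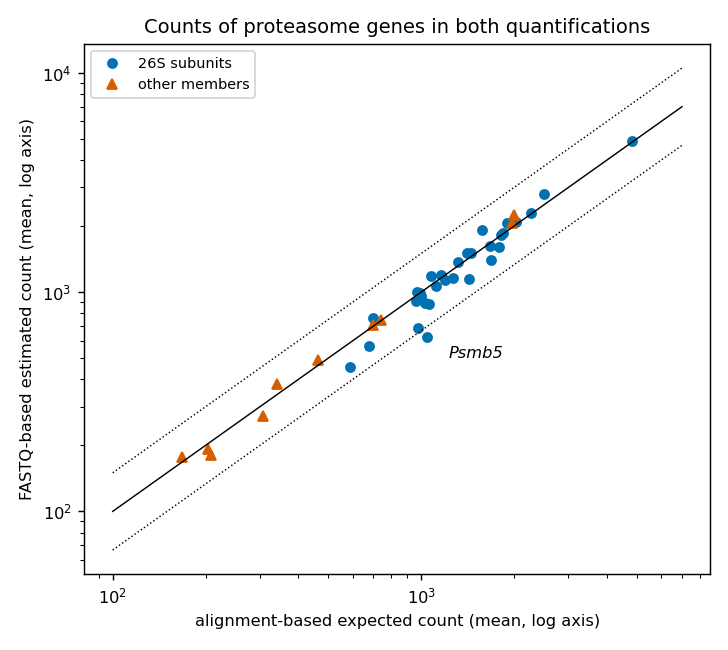
FASTQ-based estimated count against alignment-based expected count, means over the replicates on log axes, for 41 proteasome genes with at least 5 CPM; the solid line marks equal counts and the dotted lines 1.5-fold. Psmb5 is the one gene outside the dotted lines.

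Other members also share sequence with annotated copies elsewhere in the genome. Psma5 shared 49.1% of its 50-base stretches, the most of it with the pseudogene Gm8394, which held 119 and 92.8 counts beside 764 and 630 for Psma5. Psma3 shared 15.4%, all with the pseudogene Gm13835, which held 106 and 128 alignment-based counts and 0 FASTQ-based counts in both libraries. How reads were divided between these genes and their copies was not tested, so their levels are uncertain. The pseudogene Gm15542 overlaps Psmd13 by 1194 bases on the same strand and held 435 and 365 counts, beside 1174 and 978 for Psmd13. Overlapping genes on the opposite strand held counts beside Psmb7 (Nek6, 505 and 484 counts), Psmc3 (Slc39a13, 417 and 392 counts) and Psmd13 (Sirt3, 948 and 829 counts).

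The replicates differed little in these genes. Of 41 members with a mean of at least 5 CPM (counts scaled to the library size), 0 differed by 25% or more of the lower value, against a background of 6.13% of 11080 genes (3.33% higher in replicate 1 and 2.8% higher in replicate 2), and 0 differed by 2-fold, against 0.226%. The 26S subunits leaned one way: 31 of 31 were higher in replicate 1 in CPM, beside 61% of all genes, although in TPM 23 of 31 were, beside 35.6% of all genes. In FASTQ-based counts 29 of 31 were, beside 66.4%, and by library totals 31 of 31, beside 49.8%. Their median log2 ratio was 0.11, beside 0.04 for all genes, and the gap between those medians was 0.07 to 0.08 under each of the 5 scalings. Summed over the 31, the CPM ratio was 1.09 with a counting interval of 1.08 to 1.11.

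Of the 41 members, 4 were not higher in replicate 1, and none of the 4 is a 26S subunit. The ratio of replicate 1 over replicate 2 was 0.922 for Psmb10 (0.809 to 1.05), 0.883 for Psme2 (0.723 to 1.08), 0.905 for Psme4 (0.850 to 0.963) and 0.893 for Psmf1 (0.803 to 0.993). Among the subunits the ratio ran from 1.03 for Psmb2 (0.915 to 1.15) to 1.19 for Psma2 (1.095 to 1.30). These intervals cover counting error only. Some cell type markers also differed between the libraries. Beside 61% of all genes, 4 of 4 inhibitory neuron markers were higher in replicate 1, with a median ratio of 1.26. Of the myelinating oligodendrocyte markers 0 of 4 were, with a median ratio of 0.683. Median ratios were nearer 1 for excitatory neurons (0.929), astrocytes (1.08), microglia (0.990) and endothelium (0.934). The part of cell types in the direction of the subunits was not tested.

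**Figure D5:**
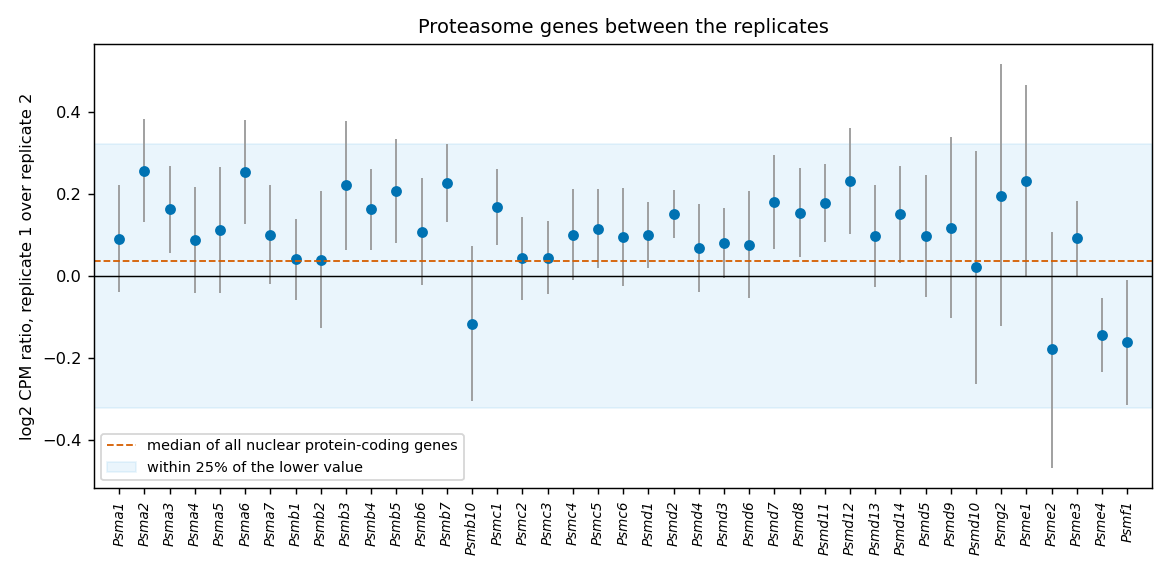
Log2 ratio of CPM in replicate 1 over replicate 2 for 41 proteasome genes, with 95% counting intervals; the dashed line is the median of all nuclear protein-coding genes and the shaded band spans a difference of 25% of the lower value. All 31 subunits of the 26S particle lie above 0 on this CPM scale (23 of 31 in TPM), and Psmb10, Psme2, Psme4 and Psmf1 lie below it.

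Genes that supply ubiquitin, deliver substrates or control the particle were read from other short lists. Ubb, a ubiquitin gene, had 754 TPM in replicate 1 and 712 TPM in replicate 2. All 8 shuttle and extraction genes were detected, led by the shuttle Ubqln2 at 98.5 and 96.6 TPM, the shuttle Rad23b at 79.7 and 88.0 TPM, and the segregase Vcp at 81.8 and 79.9 TPM. All 4 genes of other proteins bound to the particle were, led by the deubiquitinase Usp14 at 64.2 and 68.9 TPM and the proteasome adaptor Ecpas at 59.8 and 73.1 TPM. Of the particle components whose symbols fall outside the rule, 3 were detected of the 3 measured, and Paaf1 was not analysed here. Beside Pomp, Adrm1, a ubiquitin receptor, had 40.0 and 45.9 TPM and the small lid subunit Sem1 had 20.5 and 21.2 TPM. All 4 genes of transcriptional control were detected. Nfe2l1, the factor that raises proteasome genes when the particle is inhibited, had 113 and 116 TPM, its processing protease Ddi2 had 17.9 and 19.4 TPM, and Nfe2l2, its oxidative stress relative, had 5.29 and 5.51 TPM.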

How the data were processed

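Total RNA of 2 left cortices was sequenced from 300 ng each with ERCC spike-ins, per the labels. Per the accompanying file descriptions, the authors quantified each library on mm10 with GENCODE M21 in a pair of ways, from transcriptome alignments and directly from FASTQ reads. Neither the aligner nor the quantifiers, nor any step for CAST alleles, are named in the sources read. The authors' deposited tables give an expected count (in the FASTQ-based tables an estimated count) per transcript or gene, TPM scaled over all entries, and the percent of the TPM of a gene in each transcript. Per the file headers they also give the posterior SD of a count, used as a score of its uncertainty.

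Here, expected counts were rounded for edgeR 4.0.16 (R 4.3.3, limma 3.58.1), whose TMM factors of 0.987 and 1.01 scaled CPM; no test was run. DESeq2 1.42.0 gave an alternative scaling. Log2 ratios between replicates are on the log2(CPM + 1) scale, which understates differences of low genes, and ratios printed for single genes carry no pseudocount. Ratio intervals are exact 95% intervals; they and the floor of 3 counts (0.0962 and 0.111 CPM) cover counting error only. FASTQ-based totals were 31509602 and 28037421, summed per gene here. Entries with only a number took 6.39e-06% and 1.81e-05% of expected counts and were left out. Percentiles are among detected nuclear protein-coding genes. Promoter windows are from RefSeq (GRCm38.p6). All other steps used Python 3.11.15 with scipy 1.17.1, pandas 2.3.3, numpy 2.4.6 and, for plots, matplotlib 3.10.9.

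The members and lists were chosen with earlier results of these data known. Genes named are all catalytic and tissue-restricted subunits with their partners, the highest and lowest of each class, those over 2-fold from their class median, those over 25% apart between replicates, those whose leading transcript or count differed between quantifications or whose coding share was under 50%, and the most abundant of each other list, of which some are not reported here; the rest were named after their values were seen. The alternatives were other TPM minimums, quantification, scaling, pseudocounts and leaving out each replicate.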

Additional observations from a re-analysis of the deposited data

How the results depend on the processing

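No paired analysis was possible because the series holds 1 group. The number of detected members stayed within 44 to 46 under other TPM minimums and FASTQ-based TPM. The immunoproteasome to constitutive log2 ratio was -2.94 in CPM, which is not per length, and -4.40 over protein-coding transcripts, an alternative chosen after seeing the data, and leaving out each replicate gave -2.62 to -2.43. The 26S percentile was 84.8 by FASTQ-based TPM, 66.2 in CPM and 88.3 among all genes with a count, and 84.1 to 84.8 leaving out each replicate. The SD of 26S log2 levels was 0.54 by FASTQ-based TPM and 0.61 in CPM, and 0.509 to 0.515 leaving out each replicate. The median log2 ratio of the replicates over the members, 0.10, was 0.0621 by library totals, 0.0225 in TPM and 0.12 in FASTQ-based counts. In TPM, 1 member differed by 25% or more between replicates (Psme2), and with no minimum CPM 5 did, each with 35 or fewer counts in a library. The causes were not tested beyond what each alternative changes by construction. The number of 26S subunits higher in replicate 1 under each scaling was also added after seeing the data. Of these summary values only the log2 ratios could change sign, and they kept it. In TPM, however, Psma1, Psma4, Psmb1, Psmb2, Psmc2, Psmc4, Psmc6 and Psmd6 were not higher in replicate 1. The median log2 ratio of all genes, 0.04, was -0.05 in TPM. Depth limits Psmb8, Psmb9, Psma8, Psmb11, Psme2b and Psmc3ip, whose counts run from 2 to 35.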
